A study of Mus musculus with 59 samples.

Results

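The replication-dependent histone genes for H2A, H2B and H3 were followed in mouse embryonic stem cells during a block of transcription. Members were all gene symbols of the deposited table that start with Hist1 to Hist4 and name an H2A, H2B or H3 gene. There were 48 of them among 23974 symbols, namely 18 H2A, 18 H2B and 12 H3 genes. The Hist1 cluster held 37 members, the Hist2 cluster 9 and the Hist3 cluster 2, and no member carried a Hist4 symbol. The study measured how RNA decays in cells without Zcchc8, a zinc-knuckle protein that holds together the NEXT complex, through which many nuclear RNAs reach the exosome for decay. Control cells were wild type and KO cells carried the Zcchc8 knockout. Both were stem cell lines derived from BDF1 blastocysts, grown with serum, leukaemia inhibitory factor, CHIR99021 and PD0325901. All 6 groups had received spike-in RNA, and RNA was taken 0, 4 or 8 h after the transcription inhibitor Actinomycin D (5 µg/ml) was given, with 2 libraries in each group. The labels do not give the number of clones behind the KO libraries, the deleted part of the gene, or whether replicates were separate cultures. P-values therefore reflect how far these libraries differ from each other, and that spread may be only technical.

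Core histones H2A, H2B, H3 and H4 form the protein spool of the nucleosome, around which DNA is wound, and H1 binds the linker DNA between spools. The genes studied here are transcribed mainly in S phase, when new chromatin has to be packed. Their mRNAs are unusual: in place of a poly(A) tail they end in a short stem-loop, bound by the stem-loop binding protein Slbp, which serves both 3′ end formation and decay. A loss of DNA synthesis leads to their rapid decay, through a short oligo(U) tail and exonucleases that act from either end. Since ribosomal RNA was depleted rather than poly(A) RNA selected, such mRNAs can be counted in these libraries. Because all the genes code for nearly the same few proteins, their coding sequences are near copies, and reads can be hard to assign to 1 gene.

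The stem-loop is shown because it is the feature that sets these mRNAs apart. A stem of 6 bases around a loop of 4 bases was searched in GENCODE vM21 transcripts (GRCm38), starting with GG and with a T at the start of the loop. It was found in 30 of the 48 members. Among all 21877 coding symbols 461 held such a match, or 2.11%, and 46 of these were histone genes by symbol. Of the 18 members with no match, 11 had an annotated transcript that ends at the stop codon and 2 more had at most 30 bases after it, so the stem-loop region lies outside those models. The 30 matches were of only 4 different sequences of 16 bases. The loop TTTC was found in 23 members (10 H2A, 8 H2B and 5 H3 genes), TTTA in 5 (Hist1h2bb, Hist1h2bk, Hist1h3c, Hist1h3e and Hist1h3f), and TTTT and TCTT in 1 each. The mRNA sites below are written 5′ to 3′ with T for U, with stem and loop in capitals and 5 bases on either side in lower case.
Hist1h2bm (loop TTTC): acaaaGGCTCTTTTCAGAGCCactaa
Hist1h3d (loop TTTC): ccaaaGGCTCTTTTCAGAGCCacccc
Hist1h3c (loop TTTA): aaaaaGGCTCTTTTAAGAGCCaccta
Hist2h2ac (loop TTTT): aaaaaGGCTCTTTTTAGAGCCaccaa
Hist1h3g (loop TCTT): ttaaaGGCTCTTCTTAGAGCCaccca

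The 5 sites share the 6 bases of each arm, and the differences lie within the loop and the flanks. Among the members without a match that carry a long annotated tail were the H2B genes Hist2h2be and Hist1h2bc, with 2192 and 742 bases after the stop codon. Both are known to yield polyadenylated mRNA as well.

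Levels are given as normalised read counts from the authors, in which 1 counted read is worth 0.452 to 3.23 units. Counted reads ran from 465324 to 1364523 per library. Fold changes are differences of group means of log2(value + 1), tested with limma over the 6952 genes with a mean of at least 10, with Benjamini-Hochberg adjustment and calls below an adjusted p of 0.05. Of the members, 35 passed that minimum (13 H2A, 12 H2B and 10 H3 genes). The Zcchc8 gene itself stood at 59.3 and 77.5 in control and 25.3 and 5.29 in KO at 0 h (−2.42 on the log2 scale, SE 0.681, adjusted p = 0.0332). It stood at 32.7 and 24.7 against 21.3 and 13.6 at 4 h, and at 7.57 and 11.3 against 9.56 and 3.78 at 8 h, where the genotypes overlapped on 3 to 25 reads. Over all tested genes the median stood above 0 in KO, by 0.44, 0.29 and 0.63 log2 units at 0, 4 and 8 h, and at 0.04, 0.04 and −0.05 after TMM scaling, a scaling that equalises most genes between libraries. A change of a member is read against these medians.

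The other 13 members were below that minimum, and 9 of them had 0 reads in all 12 libraries: Hist1h2ao, Hist1h2ap, Hist1h2be, Hist1h2bq, Hist1h2br, Hist2h2aa1, Hist2h2aa2, Hist2h3c1 and Hist2h3c2. For 8 of these the deposited table repeats a transcript row, and these 8 were the only members with such a repeat. The exception, Hist1h2be, has several RefSeq rows. In the GENCODE transcripts a median of 93.5% of the 50-base words of these 9 genes also occurred in another gene (range 17.9% to 100%). Among the 35 tested members the median was 54.1% (14.1% to 93.9%). A listed 0 may thus not be a measure of the gene's RNA, and why these genes are at 0 was not tested. The lowest share, 17.9%, was that of Hist1h2be. The split of reads among near copies is uncertain for the tested members too, most of all for Hist1h3h (93.9%), Hist1h2ah (90.7%) and Hist1h2ai (90.1%). Sums over members depend less on that split.

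Before Actinomycin D about 1 read in 100 came from a member. The share of counted reads was 1.05% and 1.04% in the control libraries and 0.937% and 1.07% in the KO libraries. H3 genes held 43.2% to 49.5% of the member reads over the 4 libraries, H2B genes 31.0% to 35.0% and H2A genes 18.6% to 25.1%. The genotypes overlapped in each of these 3 shares. The Hist1 cluster held 77.0% to 83.6% of the member reads, Hist2 14.8% to 21.8% and Hist3 1.20% to 1.71%. The genotypes did not overlap in the Hist2 share, with 15.8% and 21.8% in control against 15.6% and 14.8% in KO, nor in the Hist3 share, which was the higher in KO (1.40% and 1.20% against 1.71% and 1.56%). Hist2h3b alone held 6.49% and 13.4% of the member reads in control and 7.44% and 7.22% in KO. Neither difference between the genotypes was tested.

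Per kilobase of gene, the highest mean at 0 h over the 4 libraries was that of the H3 gene Hist2h3b (2389), followed by the H2B gene Hist1h2bm (1732), the H3 gene Hist1h3c (1619) and the H2B gene Hist1h2bb (1264). Hist2h3b stood at 1120 and 4163 per kilobase in the control libraries and 2063 and 2209 in KO. Hist1h2bm stood at 1317 and 2147 in control and 1785 and 1679 in KO. Since a library's factor moves all its genes alike, the order is read within libraries. Hist2h3b stood above Hist1h2bm in 3 of the 4 libraries (not in control replicate 1), and Hist1h2bm above Hist1h3c in 3 (not in KO replicate 2). Both Hist1h2bm and Hist1h3c stood above Hist1h2bb in all 4. The H3 gene Hist1h3b, with a mean of 1150.1, ran from 331 to 2506 and was the highest member in KO replicate 1, and Hist1h3c, at 2487, was the highest in KO replicate 2. The lowest tested members were Hist3h2ba (72.0) and Hist1h2ad (65.5). Gene lengths were taken from RefSeq GRCm38.p6, which is not the build the reads were counted on.

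H2A and H2B genes often lie head to head and share the stretch between their starts. In RefSeq GRCm38.p6 promoters, which were found for 44 of the 48 members, 10 such divergent pairs overlapped, with starts 164 to 281 bases apart. In windows of 250 bases before to 50 bases after the start, searched on both strands, the octamer ATTTGCAT, the site of the factor Oct1 (Pou2f1) in H2B promoters, occurred in 7 of 17 H2B windows (41.2%; Hist1h2be has 2 windows, and 1 of them holds it) and 7 of 18 H2A windows (38.9%). It occurred in 0 of 10 H3 windows and in 1.74% of all 32851 promoters. CCAAT, the site of NF-Y, occurred in all 45 windows (37.4% of all promoters), and TATAAA in 23 (51.1% against 13.6%). Windows of a divergent pair share bases and are not independent, and these matches are a description of letters. The 120 bases before the start are shown for Hist1h2bm, Hist1h3c and Hist2h3b, which had the highest means per kilobase at 0 h, and for Hist2h2bb, which among tested members kept the largest share at 4 h in control, with CCAAT (or ATTGG, its reverse) and ATTTGCAT in capitals.
Hist1h2bm (GRCm38.p6 chr13:21721924-21722043, + strand): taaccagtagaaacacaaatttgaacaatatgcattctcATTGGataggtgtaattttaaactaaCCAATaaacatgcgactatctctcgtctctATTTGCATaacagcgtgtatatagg
Hist2h2bb (GRCm38.p6 chr3:96269580-96269699, + strand): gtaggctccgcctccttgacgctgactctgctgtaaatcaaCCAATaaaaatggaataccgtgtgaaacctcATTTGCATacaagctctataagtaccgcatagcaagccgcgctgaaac
Hist1h3c (GRCm38.p6 chr13:23745522-23745641, - strand): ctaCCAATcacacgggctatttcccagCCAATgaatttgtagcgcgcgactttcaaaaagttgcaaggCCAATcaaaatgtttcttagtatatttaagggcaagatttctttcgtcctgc
Hist2h3b (GRCm38.p6 chr3:96268534-96268653, + strand): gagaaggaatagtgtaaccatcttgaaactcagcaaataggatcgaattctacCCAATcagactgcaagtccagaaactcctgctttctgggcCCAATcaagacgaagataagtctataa

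In these stretches all the genes shown carry CCAAT, and the H2B genes carry the octamer while the H3 genes do not. Over all H2B windows the octamer occurred in 7 of 17. Levels within a divergent pair were close in some pairs and apart in others, as the next 2 pairs show, which were chosen after their values were seen. Hist1h2ak and Hist1h2bn, whose starts are 164 bases apart, had means per kilobase of 1024 and 1108 over the 4 libraries at 0 h, and each stood above the other in 2 of those libraries. Hist1h2ag and Hist1h2bj, 249 bases apart, had means of 225 and 1026 per kilobase, with 94.9 to 299.7 for the H2A gene and 746 to 1270 for the H2B gene, without overlap.

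Counts of these genes fell steeply over the first 4 h in Actinomycin D in both genotypes. The size of the fall depends on the scale used. All libraries at 4 and 8 h had the drug, so the cause of the fall was not tested. The summed normalised count of the 48 members was 8660 and 15647 in the control libraries at 0 h, 588 and 824 at 4 h and 165 and 209 at 8 h. In KO it was 13922 and 15356 at 0 h, 675 and 724 at 4 h and 264 and 307 at 8 h. The time points did not overlap within either genotype, whereas at 4 h the KO sums lay between the control sums. On this scale 5.81% of the 0 h mean was left at 4 h and 1.54% at 8 h in control, and 4.78% and 1.95% in KO. As RPM, reads scaled to a common library total in place of the authors' factors, 9.45% and 4.43% were left in control and 8.40% and 4.25% in KO. The median of all tested genes also moved down on the authors' scale, by −0.49 in control and −0.68 in KO from 0 to 4 h on the log2 scale, and no half-life is given.

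The share of all reads also dropped with time. At 4 h members took 0.0940% and 0.104% of reads in control and 0.0882% and 0.0803% in KO, and at 8 h 0.0459% and 0.0469% against 0.0504% and 0.0349%. KO was below control at 4 h without overlap, and the groups overlapped at 8 h. The ribosomal RNA precursor Rn45s held 13.5% to 16.0% of reads at 0 h and at most 0.793% later, and a smaller share of 1 gene leaves more to all others. With Rn45s left out, the member share was 1.11% to 1.25% over the 4 libraries at 0 h and at most 0.104% at 4 h.

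**Figure D1:**
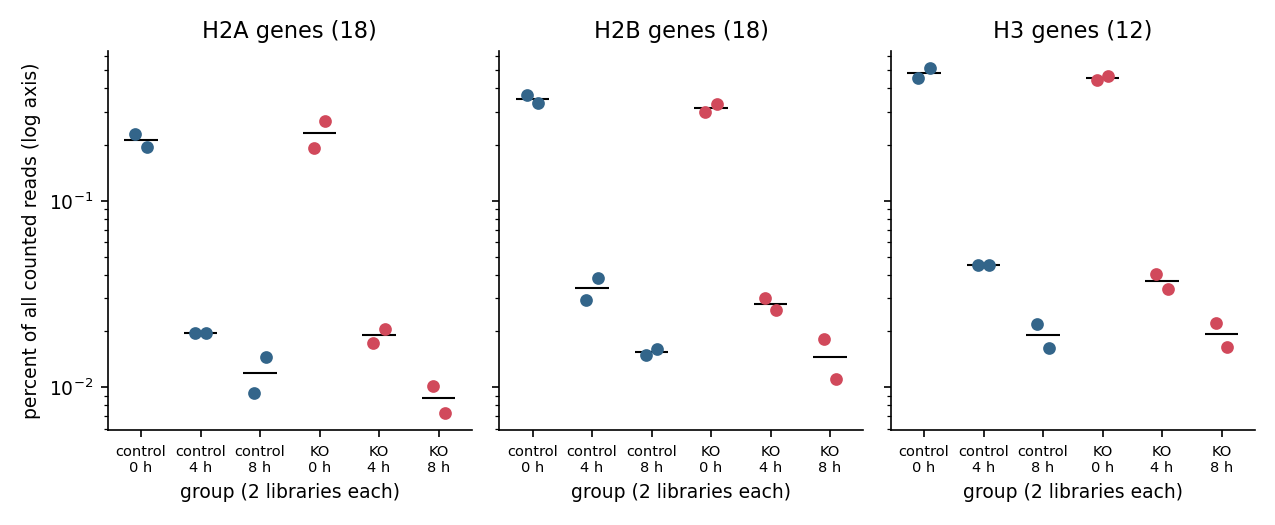
Percent of all counted reads (log axis) taken by the H2A, H2B and H3 members in each library; points are libraries, the line is the mean of the 2 libraries, blue is control and red is KO. In each histone type the 0 h libraries stand far above the later ones.

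The fall to 4 h was of like size in the 3 histone types, and at 8 h the Hist3 cluster kept the most. Of the 0 h mean sum, H2A genes kept 5.80% at 4 h in control and 4.75% in KO, H2B genes 6.11% and 5.04%, and H3 genes 5.60% and 4.60%. At 8 h H2A genes kept 2.05% and 1.75%, H2B genes 1.56% and 2.11%, and H3 genes 1.31% and 1.94%. By cluster, Hist1 kept 5.67% and 4.53% at 4 h, Hist2 6.39% and 6.20%, and Hist3, which rests on 2 genes with few reads, 5.29% and 4.04%. At 8 h Hist1 kept 1.41% and 1.82%, Hist2 1.92% and 2.37%, and Hist3 3.33% and 4.51%. As RPM, Hist3 kept 9.45% in control and 9.57% in KO at 8 h, against 4.03% and 3.98% for Hist1. At 8 h Hist3h2a held most of the Hist3 reads, 8 and 10 of 9 and 12 in control and 12 and 8 of 14 and 10 in KO. Its exons overlap those of the coding gene Trim17 on the same strand in GRCm38, and the part of Trim17 in its reads was not tested. No test of the differences between types or clusters was made, and each percentage rests on 2 libraries per time.

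Gene by gene, all 35 tested members were called lower at 4 h than at 0 h in control, against 11.8% of all tested genes. In KO 34 of the 35 were called lower, against 14.4%. The median log2 change of the members was −4.12 in control and −4.52 in KO, far beyond the medians of all tested genes given above. These counts are a description, since members that are high only at 0 h passed the minimum through those libraries. The member not called in KO was the H2A gene Hist1h2ad. It also fell, from 30.3 and 17.6 at 0 h to 2.24 and 5.81 at 4 h (log2 change −2.36, SE 1.14, adjusted p = 0.161). In control 26 of the 35 members were lower and called under every alternative processing, leave-outs included, and in KO 27. Over the 35 members and all these settings the smallest fall was −1.86 on the log2 scale in control and −1.63 in KO.

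Histone genes were frequent among the largest falls. This is a description, since members that are high only at 0 h passed the minimum through those libraries. Of the 6952 tested genes, 118 fell by at least 3 log2 units between 0 and 4 h in both genotypes. Of these 118 genes, 32 were members (27.1%), which is 91.4% of the tested members. Another 11 were H4 or H1 genes. With at least 4 log2 units there were 42 genes, 17 of them members (40.5%) and 7 of them H4 or H1 genes. The linker histone list (5 tested H1 genes) had medians of −4.07 and −4.83, and the H4 list (11 tested) −3.44 and −3.42. All H1 and H4 genes tested were called lower in control, and 5 of 5 and 10 of 11 in KO.

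Among H2B genes, Hist1h2bm was the most abundant per length. Its normalised counts were 636 and 1037 in control at 0 h, 31.3 and 51.0 at 4 h and 10.3 and 8.58 at 8 h. In KO they were 862 and 811, then 30.8 and 29.1, then 6.37 and 1.26. The times did not overlap within a genotype, the genotypes overlapped at 0 h, and KO was lower at 4 and 8 h. The 0 to 4 h log2 change was −4.31 in control (SE 0.482, adjusted p = 9.45e-09) and −4.76 in KO (SE 0.482, adjusted p = 8.68e-10). Hist1h2bb and Hist1h2bn changed alike, by −4.12 and −4.20 in control and −4.47 and −4.62 in KO. Hist1h2bg was among the most depleted H2B genes, with 263 and 491 in control at 0 h and 10.2 and 12.4 at 4 h, or 2.99% left (2.86% in KO).

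Among H3 genes, Hist2h3b had the highest mean per kilobase at 0 h, though it was the highest H3 gene in the 2 control libraries only. It stood at 562 and 2089.9 in control at 0 h, 47.3 and 64.9 at 4 h and 20.0 and 19.4 at 8 h. In KO it stood at 1036 and 1109, then 40.4 and 34.9, then 8.92 and 15.1. Control 0 h replicate 2 lay far above the other 0 h libraries, and KO was below control at 4 and 8 h without overlap. The 0 to 4 h log2 change was −4.27 (adjusted p = 3e-09) in control and −4.80 (adjusted p = 1.29e-10) in KO, both with SE 0.453. Hist1h3e and Hist1h3f, H3 genes of the Hist1 cluster, changed by −3.73 and −4.21 in control and −4.58 and −4.16 in KO. The largest called falls of H3 genes were those of Hist1h3g in control (−5.11, adjusted p = 2.76e-08) and Hist1h3h in KO (−6.20, adjusted p = 2.52e-08). Exons of Hist2h3b overlap those of Gm20628, an annotated antisense RNA in GRCm38, and no source used here says whether reads were counted by strand.

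Among H2A genes, Hist1h2ak fell from 369 and 536 to 16.7 and 37.1 in control (log2 change −4.10, SE 0.512, adjusted p = 1.01e-07). In KO it fell from 556 and 735 to 20.2 and 21.3 (−4.88, adjusted p = 1.48e-09). Hist2h2ac changed by −4.04 on the log2 scale in control and −4.87 in KO. Hist1h2ac had 250.2 and 310.1 in control and 296 and 816 in KO at 0 h, then 16.0 and 12.4 against 4.48 and 15.5. KO 0 h replicate 2 stood alone at 0 h, and the fall was −4.21 in control and −5.70 in KO. Hist1h2af changed by −3.38 in control and −4.26 in KO, Hist1h2an by −5.02 and −5.37, and Hist3h2a, in the Hist3 cluster, by −4.02 and −4.37. An annotated microRNA gene lies on the other strand of most H2A members in GRCm38 exons, and 15 of the 35 tested members have an overlapping exon of some gene on the other strand.

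Members with a loop other than TTTC are set beside all tested members. That range includes these members, and genes with few reads help set its ends, so no effect of the loop was tested. Of the 0 h mean, the 5 members with the loop TTTA kept 5.20% to 7.55% at 4 h in control and 4.05% to 8.81% in KO. Hist2h2ac (TTTT) kept 6.06% and 3.57%, and Hist1h3g (TCTT) 2.63% and 3.16%. The tested members as a whole kept 0% to 12.8% in control and 0.20% to 19.1% in KO. The highest KO value was that of Hist1h2ai (11.2% and 19.1%), which had 8.97 and 27.1 at 4 h in KO and is among the genes with the most shared sequence.

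**Figure D2:**
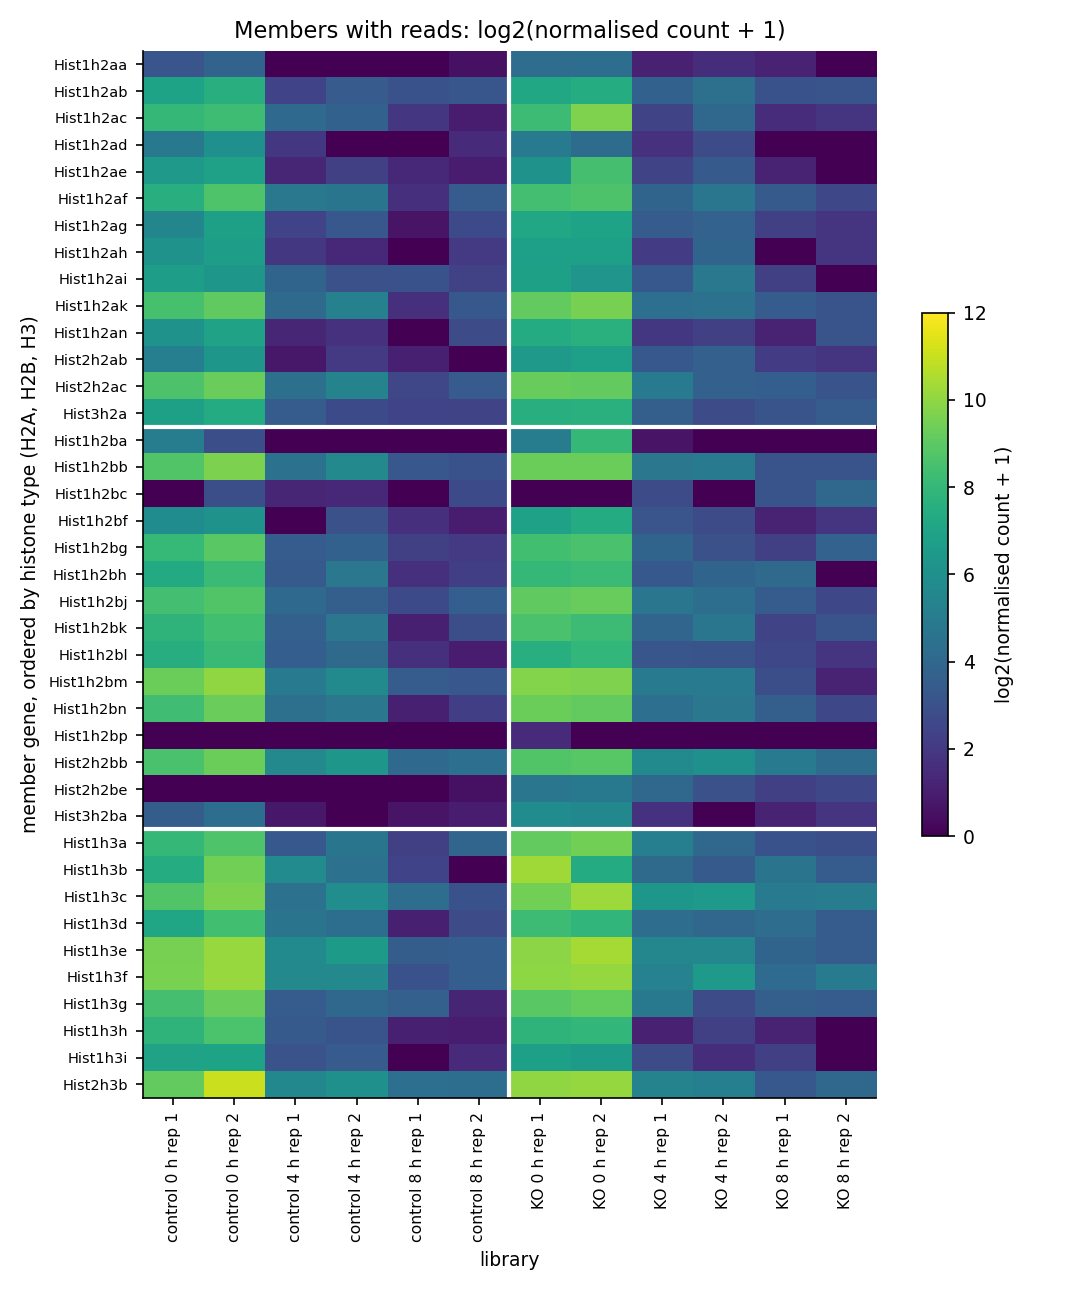
Heat map of log2(normalised count + 1) for the 39 members with reads (rows, by histone type) in the 12 libraries (columns, control then KO); white lines part the histone types and the genotypes. The 0 h columns are bright for most members and the 4 and 8 h columns dark in both genotypes, while Hist2h2be has counts in the KO columns and Hist1h2bc does not follow the fall.

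Hist2h2bb, the H2B gene beside Hist2h3b, kept the largest share at 4 h in control among the 35 tested members. Its normalised counts were 378 and 633 in control at 0 h, 49.5 and 79.6 at 4 h and 16.2 and 19.9 at 8 h. In KO they were 428 and 478, then 52.7 and 63.9, then 30.6 and 17.6. The genotypes overlapped at every time, and the times did not overlap within a genotype. The 0 to 4 h log2 change was −2.94 in each genotype (SE 0.424, adjusted p = 2.78e-06 in control and 2.29e-06 in KO), and 12.8% and 12.9% of the 0 h mean was left. Between 4 and 8 h it changed by a further −1.75 in control (adjusted p = 0.0201).

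Measured within the member reads, which no library factor can alter, Hist2h2bb went from 4.36% and 4.05% at 0 h to 8.42% and 9.65% at 4 h and 9.80% and 9.52% at 8 h in control. In KO it went from 3.07% and 3.11% to 7.81% and 8.84% and then to 9.98% and 6.67%. All 8 later libraries lay above all 4 libraries at 0 h. The gene was singled out after its values were seen, so no test is given. It has an annotated noncoding gene on each strand in GRCm38 (Gm42743 and Gm20628), and their part in its reads was not tested. Hist2h3b, which also overlaps Gm20628, held 6.49% and 13.4% of member reads at 0 h in control and 8.04% and 7.87% at 4 h.

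**Figure D3:**
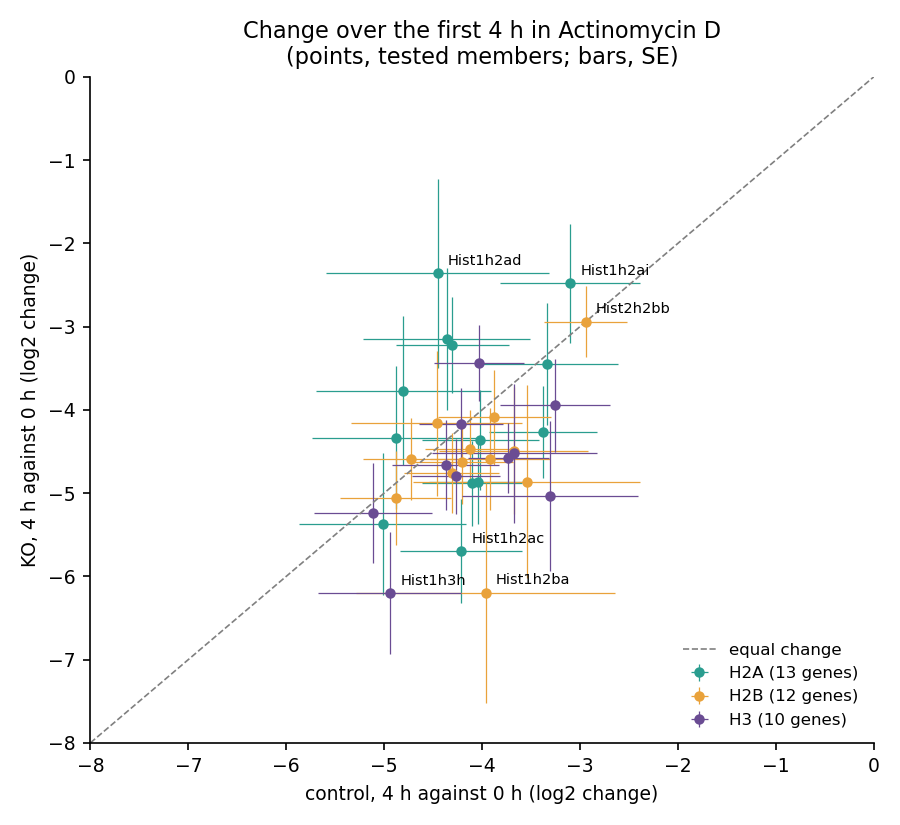
Log2 change from 0 to 4 h in control (x axis) and KO (y axis) for the 35 tested members, with SE bars; the dashed line marks equal change. All points lie below −2 on both axes, Hist2h2bb lies at −2.94 on each, and Hist1h3h and Hist1h2ba lie lowest in KO at −6.20.

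Between 4 and 8 h the fall continued at low counts. In control 15 of 35 members were called lower, against 4.63% of tested genes. The median log2 change of the 35 members was −1.51 (all genes −0.79). The largest called falls were those of Hist1h3b (−3.94, adjusted p = 0.0268), Hist1h2bn (−2.96, adjusted p = 0.000822) and Hist1h2bl (−2.58, adjusted p = 0.0185). Leave-outs gave 0 when control 4 h replicate 2 was dropped, 2 for control 4 h replicate 1 or control 8 h replicate 1, and 8 for control 8 h replicate 2. After TMM scaling 3 members were called. In KO 1 of 35 was called lower, against 0.0288% of tested genes. This was Hist1h2bm (−2.92, SE 0.482, adjusted p = 0.00198), 1 of the 2 genes called lower in that comparison. The member median in KO was −1.39 (all genes −0.45), and 18 members had an unadjusted p below 0.05. The share of all genes at that p is not set beside this count, so it is not read as particular to the members. Leave-outs gave 0 in KO when KO 4 h replicate 1 or KO 8 h replicate 2 was dropped, 4 for KO 8 h replicate 1, and 5 for either control 0 h library. Members held at most 48 reads each at 8 h in any library, which limits what can be resolved there.

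Between the genotypes no tested member differed by a called amount before the transcription block. At 0 h, 0 of 35 members were called by limma, against 4.3% of all tested genes, and 0 had an unadjusted p below 0.05. With edgeR on the deposited scale 1 was called, with edgeR after TMM scaling 0 and with DESeq2 0. The median log2 change of the members was 0.32, beside 0.44 for all genes, and after TMM scaling −0.08 beside 0.04. Both KO libraries lay above both control libraries for 11 members (37.3% of all genes did) and below for 1 (3.27% of all genes). By type the medians were 0.45 for H2A, 0.32 for H2B and 0.25 for H3 genes. Beside this, 5 of 14 tested fibroblast markers were called higher in KO at 0 h, with a median of 1.30, and their summed RPM were 7736 and 7025 in control and 13406 and 10618 in KO. Later they were 13938 to 23007 in control and 15644 to 24475 in KO. Of 10 tested stem cell identity genes 0 were called at 0 h, and the summed RPM of that list were 3496 and 3320 in control and 2835 and 2659 in KO. The part of both lists in the member values was not tested. In bulk RNA, fewer cells of a type and less RNA per cell cannot be told apart.

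The smallest p-values at 0 h came from single libraries or small steps. Hist1h2ba, the testis H2B variant gene, had 31.6 and 6.46 in control and 32.0 and 254 in KO (2.56 on the log2 scale, SE 1.32, adjusted p = 0.314). KO 0 h replicate 2 alone stood high, the other 3 libraries lay between 6.46 and 32.0, and the gene was at 0 in most later libraries. Its fall in KO (−6.20, adjusted p = 0.00105) was not called without that library (−4.72, adjusted p = 0.121). The gene was called with a pseudocount of 5 (2.26, adjusted p = 0.0298) and with edgeR on the deposited scale (2.76, adjusted p = 0.0405). The same library was also the highest at 0 h for Hist1h2ae (347, the others 67.4 to 116) and Hist1h2ac (816, the others 250.2 to 310.1), which were noticed after their values were seen. Hist1h3a, which codes for H3.1, had 254 and 419.9 in control and 561 and 686 in KO (0.92, SE 0.544, adjusted p = 0.396), without overlap. In the other direction Hist1h2ad (−0.84, adjusted p = 0.775) and Hist1h3h (−0.31, adjusted p = 0.881) had the smallest p. The sign of Hist1h3h depended on control 0 h replicate 2, and without it the log2 change was 0.093. Hist1h3b split the replicates of each group, with 174 and 701 in control and 1243 and 164 in KO.

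At 4 h 0 of 35 members were called, against 0.748% of tested genes. The member median was 0.04, beside 0.29 for all genes (−0.19 beside 0.04 after TMM scaling). Here the types parted in their medians, with 0.62 for H2A, −0.06 for H2B and −0.45 for H3 genes, a spread that was not tested. Hist1h3c had 21.1 and 57.2 in control and 79.6 and 86.2 in KO (1.23, SE 0.461, adjusted p = 0.286), and the H2A gene Hist2h2ab 0.728 and 3.09 against 8.97 and 11.6 (2.08, SE 0.852, adjusted p = 0.359). Neither pair of groups overlapped. In the other direction Hist1h3h had 9.46 and 7.72 in control and 1.12 and 3.87 in KO (−1.57, adjusted p = 0.458), and Hist1h3b 54.6 and 21.6 against 16.8 and 9.69 (−1.36, adjusted p = 0.714). In all, 8 members lay above all control libraries and 8 below (37% and 8.7% of all genes). With edgeR on either scale and with DESeq2 the count was also 0. With limma 3 members had an unadjusted p below 0.05, a count given without the share over all genes.

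At 8 h 1 of 35 members was called, against 4.89% of tested genes. This was Hist1h3d, an H3.2 gene, with 1.08 and 5.87 in control and 18.5 and 10.1 in KO (1.96 on the log2 scale, SE 0.561, adjusted p = 0.031), on 2, 13, 29 and 8 reads. The groups did not overlap. It was not called after TMM scaling (1.52, adjusted p = 0.174), with DESeq2 (1.45, adjusted p = 0.211), with edgeR and TMM (1.40, adjusted p = 0.244), with a pseudocount of 5 (1.21, adjusted p = 0.126) or with no minimum (adjusted p = 0.167). Nor was it called when control 8 h replicate 1 (1.10, adjusted p = 0.568) or either KO 8 h library (1.55 and 2.37, adjusted p = 0.12 and 0.0655) was left out. Leaving out either control 4 h library also ended the call, at the same log2 change (adjusted p = 0.0538 and 0.0505). The member median was 0.36, beside 0.63 for all genes (−0.16 beside −0.05 after TMM scaling).

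Other members near the threshold at 8 h lay on both sides. Hist1h3f had 7.03 and 10.8 in control and 17.2 and 30.2 in KO (1.29, SE 0.429, adjusted p = 0.0658). In limma it was called with a minimum of 30 (adjusted p = 0.0417) and with the replicate block (adjusted p = 0.0181). Without KO 8 h replicate 1 its log2 change was 1.68. Hist1h3b had 4.32 and 0 in control and 23.6 and 10.1 in KO without overlap (2.84, SE 0.902, adjusted p = 0.0783). It was called in 5 leave-outs (adjusted p from 0.00341 to 0.034), namely without either control 4 h library, either KO 0 h library or control 8 h replicate 1. Hist1h3c (1.34, adjusted p = 0.0772) and Hist1h2bn (1.49, adjusted p = 0.0804) also stood higher in KO, and each was called without either control 0 h library. Hist1h2bm, given above, had a log2 change of −1.35 (SE 0.482, adjusted p = 0.0906), and after TMM scaling −2.08 (adjusted p = 0.0174). Hist1h2ai had 7.03 and 4.07 in control and 3.82 and 0 in KO (−1.54, adjusted p = 0.193), and −2.67 without KO 8 h replicate 1. Hist2h3b was called lower after TMM scaling (−1.42, adjusted p = 0.0248) and with DESeq2 (−1.45, adjusted p = 0.0444), where it had −0.71 on the deposited scale (adjusted p = 0.333). Both KO libraries lay above both control libraries for 10 members and below for 3 (55.3% and 2.86% of all genes). The call of a single member at 8 h thus depended on the scale and on single libraries.

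**Figure D4:**
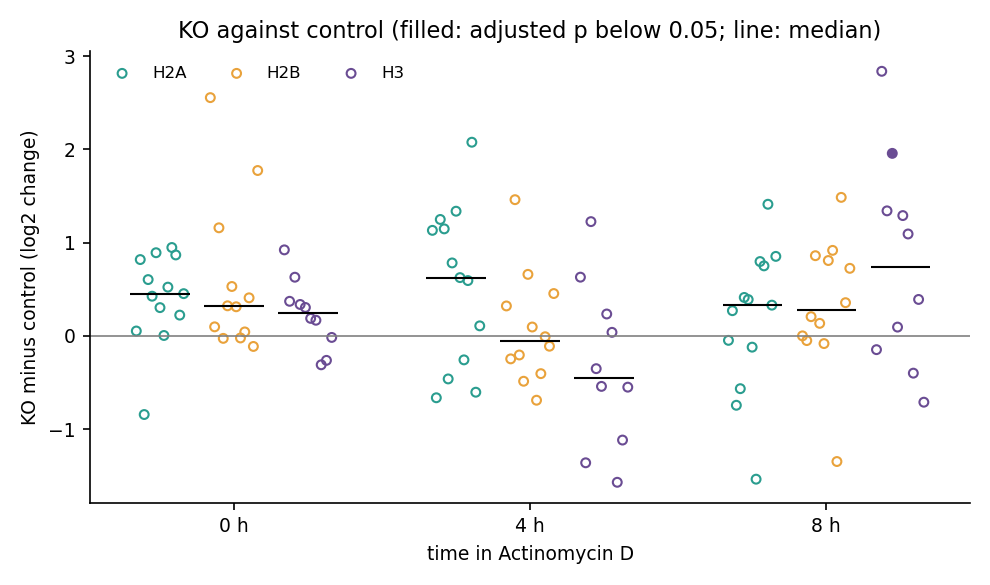
KO minus control log2 change of the 35 tested members at 0, 4 and 8 h, by histone type; filled points have an adjusted p below 0.05 and lines are medians. Hist1h3d at 8 h (1.96) is the only filled point, and medians of the types lie between −0.45 and 0.74.

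The fall itself was compared between genotypes as the difference of changes. From 0 to 4 h, 0 of 35 members were called, against 0.0144% of tested genes. From 0 to 8 h it was also 0 of 35, against 0.0144%. The member medians of KO minus control were −0.35 and −0.09, beside −0.16 and 0.18 for all genes. Single members ranged from −2.23 to 2.09 and from −2.56 to 2.47, with SE from 0.59 to 1.87. With limma 0 members had an unadjusted p below 0.05 for the 0 to 4 h difference and 2 for the 0 to 8 h difference. The share of all genes at that p is not set beside these counts. The only gene called in either was Hist1h4i, an H4 gene outside the set, at 3.25 (SE 0.564, adjusted p = 0.00542) and 3.31 (adjusted p = 0.0038), higher in KO. No edgeR, DESeq2 or leave-out fit called a member in either comparison. These comparisons share libraries with those of each time point.

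Of the members under the minimum, Hist2h2be, the H2B variant gene known from olfactory neurons, was counted in KO and hardly in control. Its values in control were 0 and 0 at 0 h, 0 and 0 at 4 h and 0 and 0.452 (1 read) at 8 h. In KO they were 25.3 and 28.2 at 0 h, 15.7 and 6.78 at 4 h and 3.82 and 5.04 at 8 h, on 31, 35 and 10 reads over the 2 libraries of each time. Every KO library lay above every control library of its time. Against a floor of 3 reads per control library, KO was at least 3.92-fold higher at 0 h and at least 4.99-fold higher at 4 h. With no minimum on level limma called the gene at 0 h (4.79 on the log2 scale, SE 0.9, adjusted p = 0.0147), and not at 4 h (adjusted p = 0.238) or 8 h (adjusted p = 0.344). The gene was picked out after its values were seen, and the number of reads is small. No 50-base word of its transcript occurred in another gene, and no exon of another gene overlapped it in GRCm38.

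In KO, 42.0% of the 0 h mean of Hist2h2be was left at 4 h and 16.6% at 8 h, beside 4.78% and 1.95% for the sum of all members. Hist1h2bc, another H2B gene with a long annotated tail and no stem-loop match, did not follow the fall, on few reads. It has 2 RefSeq rows, which were summed, and its read counts were all even numbers. Whether reads were counted for both rows was not tested. The H2B gene Hist1h2bh, with a stem-loop match and 1258 bases after the stop codon, kept 7.94% at 4 h in control and 4.17% in KO. Hist1h2bc had 0 and 6.46 in control at 0 h, 1.46 and 1.54 at 4 h and 0 and 5.42 at 8 h. In KO it had 0 and 0, then 5.61 and 0, then 7.65 and 15.1. These are 2, 4 and 12 reads per time in control and 0, 10 and 24 in KO, and no comparison of the gene was called (with no minimum, 8 h KO against control 2.22, adjusted p = 0.471). The testis H2A variant gene Hist1h2aa had 10 reads in control and 22 in KO at 0 h and at most 4 per group later. Hist1h2bp had 1 read in all. Hist3h2ba, which passed the minimum, had 10.5 and 19.4 in control and 55.6 and 47.6 in KO at 0 h without overlap (1.77, SE 1.16, adjusted p = 0.469). All but Hist3h2ba were chosen after their values were seen.

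**Figure D5:**
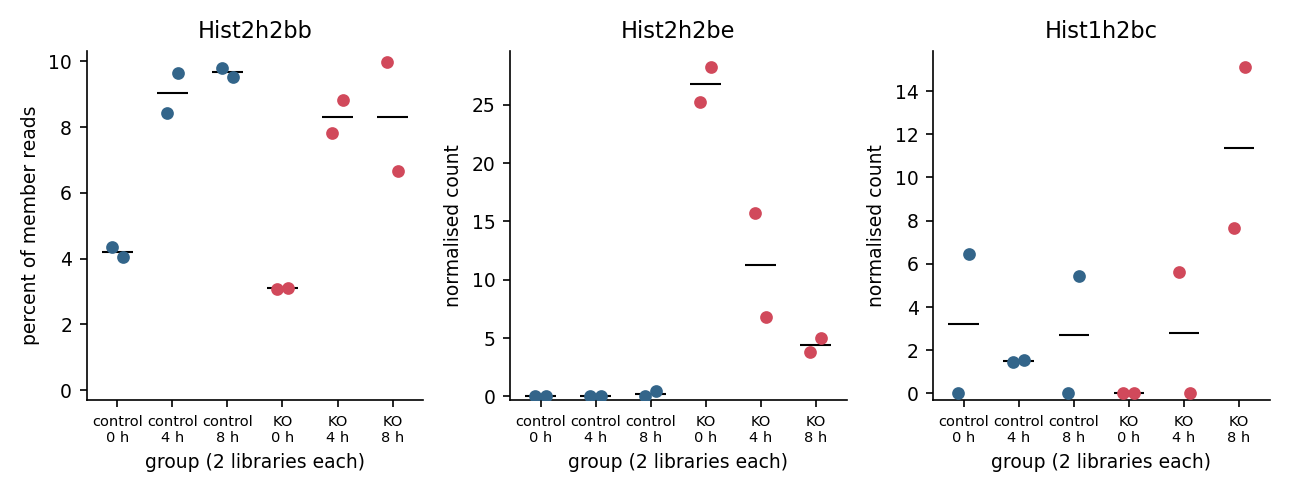
Hist2h2bb as percent of the reads of all members (left), and normalised counts of Hist2h2be (middle) and Hist1h2bc (right), in each library (points) with group means (lines); blue is control, red is KO. Hist2h2bb takes a larger percent at 4 and 8 h than at 0 h, Hist2h2be has counts above 3 in all KO libraries and at most 0.452 in control, and Hist1h2bc is highest in KO at 8 h.

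Genes that make, use and degrade histone mRNA were given by lists. Of 7 tested genes of histone mRNA 3′ end processing and transcription, 0 were called between genotypes at any time. Over all tested genes 4.3%, 0.748% and 4.89% were called at 0, 4 and 8 h. Npat, the S phase activator of histone genes, was called lower in KO from 0 to 4 h (−3.08, SE 0.818, adjusted p = 0.00854). Cdk9, a transcription elongation kinase, was called lower in control (−1.82, adjusted p = 0.009). Of 14 decay factors, the list that holds Zcchc8, only Zcchc8 was called at 0 h and only Lsm4, a subunit of the ring that binds oligo(U) tails, at 8 h (1.29, SE 0.385, adjusted p = 0.0387, higher in KO). The uridylyltransferase Zcchc11 was called lower in KO from 0 to 4 h (−1.66, adjusted p = 0.0382). Since Hist1h4i was the only gene called in a difference of changes, a call in 1 genotype only is not read as a genotype difference.

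The replication-independent histone variants, whose mRNAs carry poly(A) tails, changed less over the first 4 h than the members. Of 8 tested, 1 was called lower in control and 2 in KO, with medians of −0.19 and −0.41. The calls were those of H2afx in both genotypes (−1.78, adjusted p = 0.000932, and −1.99, adjusted p = 0.000204) and H1f0 in KO (−1.50, adjusted p = 0.0121). H2afx is known to yield a stem-loop mRNA as well as a polyadenylated one. H2afj, an H2A variant gene, was higher in KO at 0 h (1.55, SE 0.379, adjusted p = 0.0116) and at 8 h (1.42, adjusted p = 0.0188).

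Genes of S phase and replication, the phase in which members are transcribed, did not part the genotypes by a call. Of 17 tested, 0 were called between genotypes at 0, 4 or 8 h, with medians of 0.48, 0.31 and 0.79, beside 0.44, 0.29 and 0.63 for all genes. From 0 to 4 h 1 was called lower in each genotype, the replication licensing factor gene Cdt1 (−3.19, adjusted p = 6.09e-06 in control, and −2.64, adjusted p = 0.00014 in KO). Of 11 histone chaperone genes, Chaf1a, a subunit of the assembly factor CAF-1, was called lower in both genotypes (−1.40, adjusted p = 0.0308, and −2.57, adjusted p = 6.41e-05). Ubn1 was called lower in control (−2.28, adjusted p = 0.0231). Asf1a was the only chaperone gene called between genotypes, higher in KO at 8 h (2.09, SE 0.529, adjusted p = 0.0134).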

How the data were processed

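Of 59 samples in the series, the 12 of the Actinomycin D experiment were used; the other 47 were not analysed here. For each RefSeq transcript the authors deposited a normalised signal, its read count over a factor of the library. Per the submitters' processing notes, TopHat2 2.1.1, HTSeq 0.6.0, DESeq2 and mm9 were used, with no settings. Every deposited signal was a whole multiple of 1 read within 0.001 (100% of values), so whole reads were recovered. In some libraries, such as KO 8 h replicate 2, most member counts were even numbers. Whether both mates of a read pair were counted was not tested, so independent fragments may be fewer than the reads given. The table held 0 spike-in rows.

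Of 33896 rows, 978 repeats were dropped, and rows were summed by symbol. Genes with a mean of at least 10 entered limma 3.58.1 (R 4.3.3; log2(value + 1), trend and robust, two-sided, all 6 groups in 1 fit). edgeR 4.0.16 and DESeq2 1.42.0 on recovered reads, TMM scaling, a pseudocount of 5, no minimum, a minimum of 30, a replicate block and leave-outs were alternatives. The test was checked on simulated counts. Sequences came from GENCODE vM21 and RefSeq GRCm38.p6, by symbol.

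Members and lists were chosen with earlier results of these data known. Named were Zcchc8, the 3 most abundant tested members per type and cluster, members called between genotypes, the 3 largest called falls, and the 2 smallest p per direction between genotypes. Of the lists some called genes were named, and others that were called are not named here.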

Additional observations from a re-analysis of the deposited data

How the results depend on the processing

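Across alternatives the early fall kept its direction: from 0 to 4 h 29 to 34 members were called lower in control and 28 to 34 in KO when single libraries were left out. Of the log2 changes of named members under alternatives, 941 kept direction and side of the threshold, 57 lost a call, 13 gained one and 1 changed sign (Hist1h3h at 0 h, 0.093 without control 0 h replicate 2; its leave-outs ran from −0.71 to 0.093). The causes were not tested. Counts of members under alternatives, and those at an unadjusted p, are given without the share over all genes. Neither kind of count is read as particular to the members.

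Members called higher in KO at 0 h were 1 with a pseudocount of 5, no minimum or edgeR on the deposited scale, and 0 to 0 in leave-outs. At 8 h the higher count was 0 with a pseudocount of 5, no minimum, TMM scaling, edgeR with TMM or DESeq2, 3 with a minimum of 30 and 0 to 4 in leave-outs. The lower count at 8 h was 2 with TMM scaling, 1 with DESeq2 and 0 to 2 in leave-outs. From 4 to 8 h in control it was 3 with no minimum, 3 with TMM scaling, 2 with edgeR and TMM, 3 with DESeq2 and 0 to 19 in leave-outs. In KO it was 0 with no minimum, TMM scaling or edgeR with TMM, 2 with a minimum of 30 or DESeq2 and 0 to 5 in leave-outs.

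With the replicate block, 5 members were called higher and 1 lower in KO at 8 h, and 5 were called lower from 4 to 8 h in KO. Same-numbered libraries deviated together with correlations of −0.0703 to 0.117, so the numbers are shared labels and no pairing was used.

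The sums left, as percent of 0 h, were 9.45 and 4.43 in control at 4 and 8 h and 8.40 and 4.25 in KO as RPM, and 9.35, 4.48, 8.27 and 4.46 after TMM scaling. Depth limits single members at 8 h to at most 48 reads per library. Where a leave-out leaves 1 library in a group, it is assumed to vary like the others.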
